A study of Mus musculus with 9 samples.

Results

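Mouse cortical neurons kept with a peptide scaffold that also carried a component called PS2 were compared with neurons of a control group. The comparison rests on the 3 libraries titled therapy PA + PS2 and the 3 titled therapy control, which are 6 of the 9 RNA sequencing libraries of the series and were picked out by their titles. In these libraries 15712 of the 54232 genes listed could be tested. Every library is labelled as wildtype cortical neurons of CD1 mice, with no age, dose or time of culture.

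PA stands for peptide amphiphile, a molecule whose peptide head and fatty tail let it form nanofibres in water, and its libraries carry the name IKVAV. The PA + PS2 libraries carry the name IKVAV plus PEDOT-S-OH, in which PEDOT is a conductive polymer. The control libraries carry the name PDL, and neither PS2 nor PDL is spelled out. The field for treatment names the peptide amphiphile for the control libraries too, so the groups were taken from the titles. The 3 libraries titled therapy PA hold the scaffold without PS2, and their values are given beside the others. Whether the repeats were separate cultures is not labelled, so the p-values measure the spread between these libraries, which may be technical.

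As background, IKVAV is a short stretch of the laminin alpha 1 chain to which neurons attach. Laminins, type IV collagens, nidogens and perlecan form the basement membrane, and cells hold on to it through integrins, which are tied inside the cell to actin by focal adhesions. Tension in these actin cables moves the coactivators YAP and TAZ into the nucleus, where they act through the TEAD factors, and frees coactivators of the factor SRF, which binds CArG boxes. In cultures of embryonic cortex, most of the collagen and smooth muscle actin is made by fibroblasts, pericytes and glial progenitors and little by neurons. A separate control, the factor ATF4, raises amino acid transporters and aminoacyl-tRNA synthetases when amino acids run short or protein folding is disturbed.

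In PA + PS2, a number of genes of the extracellular matrix, of actin contraction and of cell division were lower than in the control. Olig1, Olig2 and Pdgfra of the oligodendrocyte lineage were lower too. A smaller group of amino acid response genes and phagocyte genes was higher. In the lists of neurons, synapses and axons 0 genes passed in either of the 2 edgeR fits of all 9 libraries, with or without a term for the repeat. Without the term for the repeat number, edgeR's quasi-likelihood test called 7 genes lower (0.0446% of the genes tested) and 0 higher (0%) at an adjusted p under 0.05. At an unadjusted p under 0.05 the same fit had 713 lower (4.54%) and 171 higher (1.09%), and DESeq2 called 195 lower and 17 higher. With the repeat number as a block, 184 genes passed (1.17%), 166 of them lower (1.06%) and 18 higher (0.115%). The share of all genes at an unadjusted p under 0.05 was not counted with the block. List counts at that cut in the blocked fit can therefore not be set against it. Libraries of the same repeat deviated together in this comparison, so the block is given beside each result, and "fell" and "rose" are used below only of genes that passed in the blocked fit. Fold changes are on the log2 scale with their standard errors, and levels are counts scaled to library size (CPM) given in the order of repeats 1, 2 and 3.

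**Figure D1:**
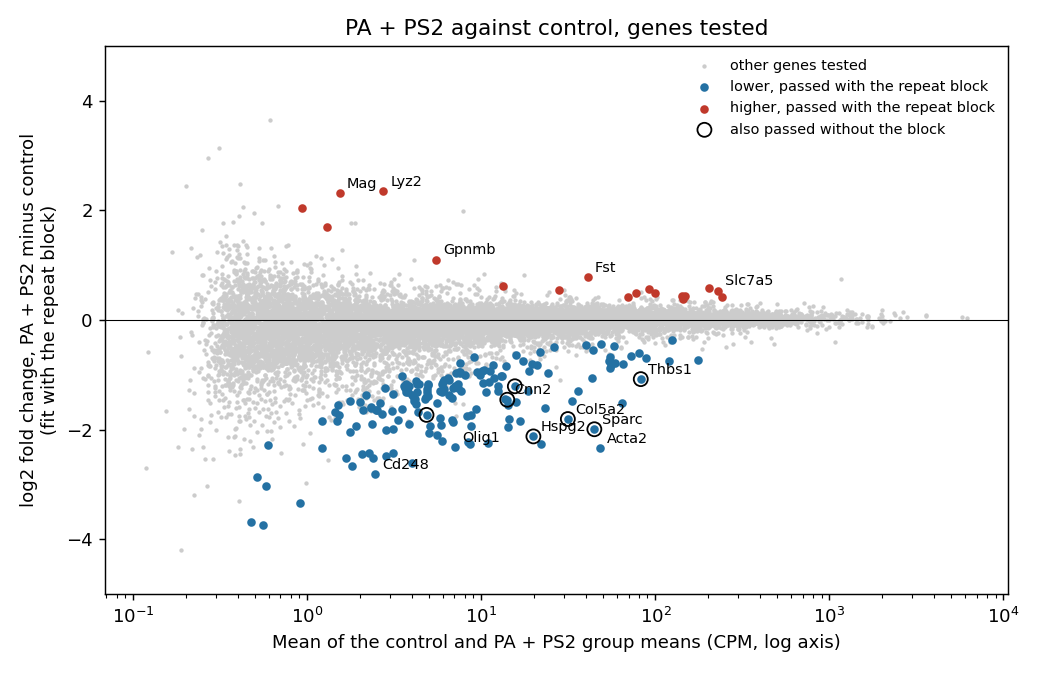
Mean level of each gene over the control and PA + PS2 libraries (x axis, CPM, log scale) against its log2 fold change between PA + PS2 and control in the blocked fit (y axis), with genes that passed that fit in color, those that also passed without the block circled, and selected genes named. The 166 lower genes reach further from 0 than the 18 higher ones, with medians of −1.36 and 0.56.

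All 184 genes of the blocked fit were protein coding. Each of the 166 lower genes was below the control of its own repeat in 3 of 3 pairs, and each of the 18 higher genes was above it in 3 of 3. The groups did not overlap for 150 of the lower and for all 18 of the higher genes, where 1028 (6.54%) of the genes tested lay wholly below and 845 (5.38%) wholly above. The genes were picked by the blocked fit of these same libraries, so the pairs and the overlap follow largely from that choice. They are no separate support. Among the lower genes 129 were at least halved, and among the higher ones 5 were at least doubled. Of the genes tested, 50.2% had a log2 fold change below 0 without the block.

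The counts depended on single libraries. Leaving out control repeats 1, 2 or 3, the blocked fit called 197, 23 and 21 genes lower and 7, 0 and 0 higher. Leaving out PA + PS2 repeats 1, 2 or 3, it called 358, 11 and 31 lower and 75, 1 and 1 higher. The fit without the block ran from 0 to 173 lower, the latter without control repeat 1. Among the lower genes 11 passed in all 6 of the blocked fits that leave out a library, among them Col5a2, Olig1, Col4a1, Thbs1, Cnn2, Nid1, Sparc, Egfr, Ccn1 and Anxa2, and 155 lower and all 18 higher genes were lost in at least 1. For the gene lists below, counts with a library left out are from the blocked fit and stand in the order of control repeats 1, 2 and 3 and then PA + PS2 repeats 1, 2 and 3. List medians and counts of members with a log2 fold change below or above 0 are from the fit without the block, unless stated.

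Total counts of the 6 libraries ran from 20746851 to 26123110, so 10 CPM in the shallowest is 207 reads. Control repeat 1 stood apart from the other controls in cell division genes. The summed level of the 22 mitosis genes was 178, 359 and 421 CPM in the control and 130.1, 164 and 168 CPM in PA + PS2. PA + PS2 repeat 3 had the lowest fibroblast markers, and both libraries are taken up below where they matter. Neuron markers were high in all 6 libraries, where the 18 of them summed to 17035, 16577 and 17695 CPM in the control and 17073, 17512 and 18792 CPM in PA + PS2.

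Collagens of the fibrillar family and their partners were lower throughout. All 15 tested members had a log2 fold change below 0, with a median of −1.48, and 5 fell in the blocked fit. Col5a2 (chromosome 1, 45374321 to 45503282), which sets the width of collagen fibrils, read 42.3, 49.4 and 54.2 CPM in the control and 15.9, 16.1 and 10.4 CPM in PA + PS2. The highest PA + PS2 library was far under the lowest control (log2 fold change −1.80 ± 0.16, adjusted p = 0.00197 with the repeat block and 0.0105 without it). The PA libraries read 30.5, 37.3 and 26.6 CPM, between the other groups without overlap with either. Col1a1, the main chain of collagen I, read 34.8, 54.8 and 18 CPM in the control and 13, 9.68 and 1.62 CPM in PA + PS2. Its groups did not overlap, but repeat 3 was lowest in both, and its call came only with the block (log2 fold change −2.25 ± 0.32, adjusted p = 0.0112 with the repeat block and 0.32 without it). Col12a1, a collagen that sits on fibrils, read 17.5, 20.1 and 32.6 against 9.48, 9.95 and 5.7 CPM (log2 fold change −1.49 ± 0.28, adjusted p = 0.0299 with the repeat block and 0.0996 without it). With 1 library left out, the list had 5, 3, 2, 12, 1 and 3 lower members.

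Basement membrane genes were lower in part. Of the 23 tested members of this list 9 fell and 0 rose, with a median of −0.72. Col4a1 (chromosome 8, 11198423 to 11312826), the sheet-forming collagen IV chain, read 78.8, 116 and 87.4 CPM in the control and 38.1, 49.6 and 17 CPM in PA + PS2, without overlap (log2 fold change −1.51 ± 0.19, adjusted p = 0.00849 with the repeat block and 0.128 without it). Nid1, which links the laminin and collagen sheets, read 8.01, 12.1 and 11.7 against 3.13, 4.01 and 1.95 CPM (log2 fold change −1.82 ± 0.22, adjusted p = 0.00849 with the repeat block and 0.0537 without it). Both were lowest in PA + PS2 repeat 3 and were clear of the control in all 3 libraries. Hspg2, the core protein of perlecan, read 25.3, 24.3 and 47.3 against 8.51, 8.87 and 4.99 CPM, with control repeat 3 well above the other controls (log2 fold change −2.12 ± 0.30, adjusted p = 0.0112 with the repeat block and 0.0375 without it). Col4a5 read 5.75, 7.3 and 9.25 against 2.31, 2.43 and 1.95 CPM (log2 fold change −1.73 ± 0.23, adjusted p = 0.00929 with the repeat block and 0.0375 without it), and Col4a2, the partner of Col4a1 in the same molecule, read 65.3, 73.7 and 63.5 against 45.1, 47.6 and 29.9 CPM (log2 fold change −0.75 ± 0.11, adjusted p = 0.0112 with the repeat block and 0.161 without it). Hspg2 and Col4a5 lost their calls with the block only without PA + PS2 repeat 2, at adjusted p = 0.0528 and 0.0552.

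Of 10 tested laminin chains 3 fell and 7 did not pass. Lama5, the alpha 5 chain, read 4.52, 6.74 and 9.48 CPM in the control and 2.31, 3.16 and 2.12 CPM in PA + PS2 (log2 fold change −1.43 ± 0.26, adjusted p = 0.0293 with the repeat block and 0.0864 without it). Lamb2, the beta 2 chain of synaptic laminin, read 7.48, 9.91 and 11.4 against 3.85, 4.82 and 3.58 CPM (log2 fold change −1.23 ± 0.19, adjusted p = 0.0149 with the repeat block and 0.0833 without it), and Lamc1, the gamma 1 chain shared by most laminins, read 57.8, 69.2 and 75.8 against 39.5, 47.4 and 41.1 CPM (log2 fold change −0.66 ± 0.11, adjusted p = 0.0186 with the repeat block and 0.0833 without it). None of these 3 chains overlapped the control, and no difference between chains was tested. With 1 library left out, 9, 5, 5, 11, 2 and 5 members of the basement membrane list were lower.

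Matricellular proteins, which sit in the matrix and tune adhesion, gave 5 of 18 tested members that fell and 0 that rose. Sparc (chromosome 11, 55394500 to 55423183), a collagen-binding protein, read 52.1, 75.6 and 85 CPM in the control and 22.1, 20.8 and 11.6 CPM in PA + PS2. All 3 PA + PS2 libraries were under the lowest control (log2 fold change −1.99 ± 0.24, adjusted p = 0.00849 with the repeat block and 0.0375 without it), and the PA libraries read 42, 65.5 and 36.3 CPM. Thbs1 (chromosome 2, 118111876 to 118127133), thrombospondin 1, a secreted protein by which astrocytes induce synapses, read 98.8, 101 and 136 against 53.1, 58.4 and 46.8 CPM, without overlap (log2 fold change −1.08 ± 0.13, adjusted p = 0.00849 with the repeat block and 0.0338 without it). In fits that each left out 1 library, 6, 3, 3, 6, 3 and 4 of the list were lower, and 1 was higher without PA + PS2 repeat 1. The neural matrix protein Tnc read 27.2, 81.3 and 78.7 against 31.5, 44.3 and 46.2 CPM, where control repeat 1 lay below every PA + PS2 library and the other controls above (log2 fold change −0.54 ± 0.22, adjusted p = 0.507 with the repeat block and 1 without it). In the 12 tested members of the neural tissue matrix list, 0 passed in either edgeR fit, with a median of −0.25. At an unadjusted p under 0.05, 6 of them were lower with and without the block, and DESeq2 called 1 lower.

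Genes for proteins that fold and crosslink collagen were also lower in part, with 5 of 18 tested members lower and a median of −0.60. When 1 library was left out, 1, 0, 0, 7, 0 and 1 were lower. In the blocked fit the median was −0.61 with all libraries and −0.26 without PA + PS2 repeat 2. Serpinh1, the chaperone of procollagen, read 23.7, 38.2 and 43.2 CPM in the control and 13.3, 14.8 and 6.65 CPM in PA + PS2, without overlap (log2 fold change −1.60 ± 0.25, adjusted p = 0.0152 with the repeat block and 0.0833 without it). Among proteases and their inhibitors 2 of 23 fell (1, 1, 1, 4, 1 and 1 with 1 library left out). Fibronectin, Fn1, read 173, 183 and 196 against 142, 161 and 135 CPM and did not pass (log2 fold change −0.34 ± 0.09, adjusted p = 0.151 with the repeat block and 0.407 without it). Of the 15 tested fibronectin and elastic fibre genes 2 fell, and of the 5 small leucine-rich proteoglycans 2. In the fits that left out 1 library, these counts were 1, 1, 0, 5, 0 and 0 and, for the proteoglycans, 1, 0, 0, 3, 0 and 1. Bgn, biglycan, a member of the latter that binds collagen, read 10.8, 21.6 and 8.52 against 3.94, 4.24 and 0.915 CPM (log2 fold change −2.22 ± 0.32, adjusted p = 0.0115 with the repeat block and 0.277 without it).

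Integrins and focal adhesions showed the same direction in fewer members. Among 18 tested integrins 4 fell, 0 rose and the median was −0.43. Itgb5, a partner of the alpha v chain, read 6.53, 12.3 and 10.9 CPM in the control and 2.79, 4.32 and 3.91 CPM in PA + PS2, without overlap (log2 fold change −1.41 ± 0.20, adjusted p = 0.0103 with the repeat block and 0.097 without it). Itgb1, the beta chain shared by most laminin receptors, read 91.9, 128 and 125 against 79.99, 89.6 and 85.3 CPM, so that its groups were also apart but the difference did not pass (log2 fold change −0.42 ± 0.10, adjusted p = 0.0979 with the repeat block and 0.693 without it). Of 26 focal adhesion genes 4 fell, among them Vcl, vinculin, which ties integrin complexes to actin, at 23.6, 30.04 and 24.3 against 18.2, 20.4 and 13.7 CPM (log2 fold change −0.58 ± 0.11, adjusted p = 0.0297 with the repeat block and 0.284 without it). Itga5, the chain of the fibronectin receptor, fell as well (log2 fold change −1.62 ± 0.25, adjusted p = 0.0148 with the repeat block and 0.112 without it). Among 13 other laminin receptors 2 fell, with a median of −0.10. With 1 library left out, 3, 0, 0, 7, 0 and 1 integrins, 5, 0, 0, 10, 0 and 1 focal adhesion genes and 2, 0, 0, 2, 0 and 0 other laminin receptors were lower.

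Actin bundling and contraction was the list with the most calls, 14 of 28 tested members lower and 0 higher, with a median of −1.05. Cnn2 (chromosome 10, 79988584 to 79996062), a calponin that holds actin filaments, read 16.8, 22.8 and 22.1 CPM in the control and 8.95, 7.79 and 5.99 CPM in PA + PS2. The PA libraries, at 15.3, 16.2 and 12.5 CPM, lay between and overlapped neither PA + PS2 nor the control (log2 fold change −1.45 ± 0.17, adjusted p = 0.00849 with the repeat block and 0.0338 without it for PA + PS2 against the control). Palld, palladin, a scaffold of stress fibres, read 18.3, 21.8 and 25 against 9.57, 10.2 and 8.48 CPM, without overlap (log2 fold change −1.21 ± 0.16, adjusted p = 0.00932 with the repeat block and 0.0375 without it). Acta2, smooth muscle actin, read 50.9, 80.3 and 106 against 19.4, 26.3 and 4.57 CPM, with PA + PS2 repeat 3 far under the other PA + PS2 libraries (log2 fold change −2.33 ± 0.43, adjusted p = 0.0297 with the repeat block and 0.108 without it). Myl9, the regulatory light chain of contractile myosin, read 7.23, 11.1 and 13.7 against 3.66, 3.97 and 1.41 CPM (log2 fold change −1.85 ± 0.32, adjusted p = 0.0229 with the repeat block and 0.0864 without it). Cald1, caldesmon, read 34.1, 55.4 and 57.1 against 19.3, 21.8 and 12.1 CPM, again without overlap (log2 fold change −1.47 ± 0.20, adjusted p = 0.00953 with the repeat block and 0.0786 without it). The count with 1 library left out was 11, 3, 3, 20, 1 and 4, so that without PA + PS2 repeat 2 only 1 was called.

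**Figure D2:**
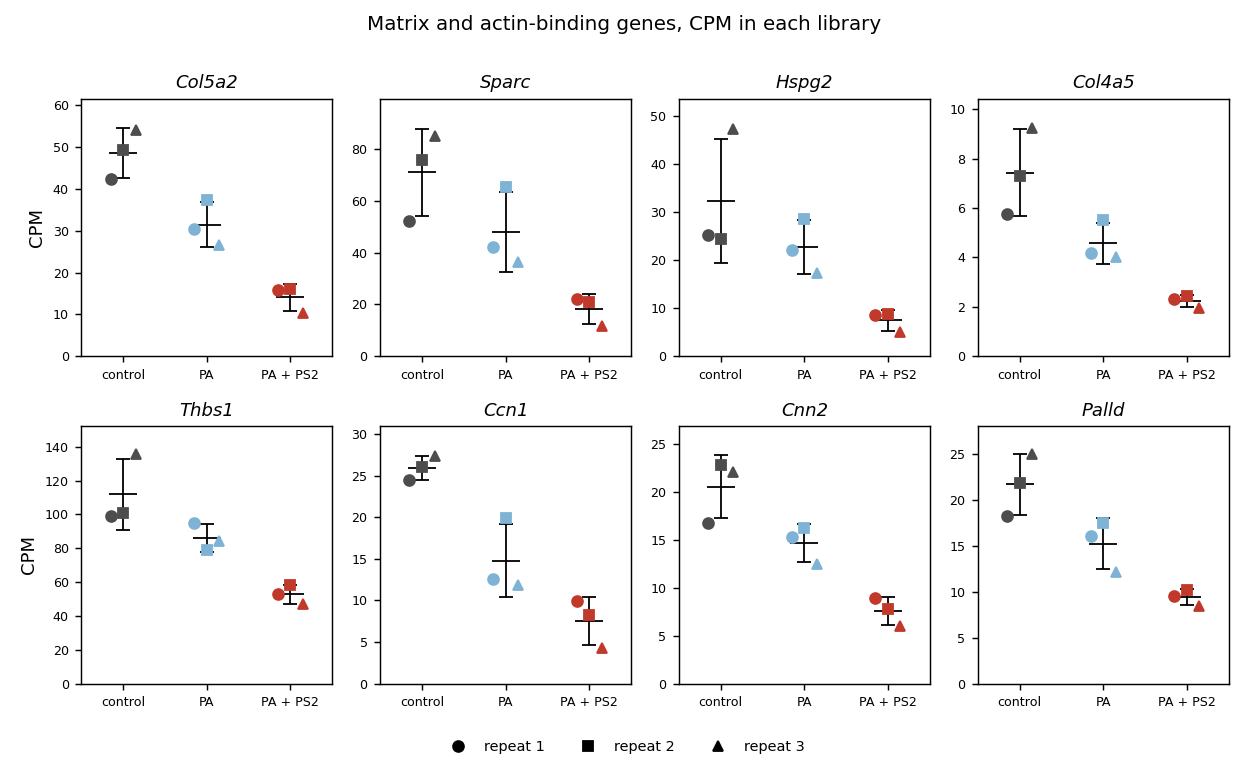
Level in each library (y axes, CPM, starting at 0) of 8 matrix and actin-binding genes in the control, PA and PA + PS2 groups (x axes), with 1 symbol per repeat, a line at the group mean and an error bar of 1 SD over 3 libraries. In all 8 panels every PA + PS2 library lies below every control library.

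YAP, TAZ and the TEAD factors were themselves lower in part. Of 16 tested genes of this list 4 fell and 0 rose, with a median of −0.18. Yap1 read 3.53, 7.04 and 7.73 CPM in the control and 2.36, 2.97 and 2.62 CPM in PA + PS2, and Tead2 read 9.45, 16.1 and 17.2 against 5.63, 6.36 and 6.9 CPM. Both groups were apart, with control repeat 1 the lowest control (log2 fold change −1.16 ± 0.23, adjusted p = 0.0355 with the repeat block and 0.161 without it for Yap1). For Tead2 the adjusted p was 0.0197 with the block and 0.0894 without it (−1.16 ± 0.19). Vgll3, a TEAD cofactor, also fell (log2 fold change −1.93 ± 0.27, adjusted p = 0.0103 with the repeat block and 0.0588 without it). Of the 21 tested YAP target genes 5 fell and 0 rose, with a median of −0.35. Ccn1 (chromosome 3, 145646976 to 145649981), a secreted matricellular protein and standard YAP target, read 24.5, 26.1 and 27.3 against 9.91, 8.29 and 4.28 CPM, with no overlap and the PA libraries at 12.6, 19.9 and 11.9 CPM (log2 fold change −1.84 ± 0.23, adjusted p = 0.00849 with the repeat block and 0.0537 without it). Ccn2, its relative, read 13.2, 23.1 and 17 against 5.29, 5.59 and 1.08 CPM (log2 fold change −2.23 ± 0.36, adjusted p = 0.0186 with the repeat block and 0.149 without it). With 1 library left out, 6, 1, 1, 5, 1 and 2 YAP targets were lower, with 1 higher without PA + PS2 repeat 1, and 5, 1, 0, 5, 0 and 0 genes of the YAP and TEAD factor list were lower. SRF and its coactivators gave 0 calls among 6 tested genes in either edgeR fit (1 lower at an unadjusted p under 0.05 in both, 0 by DESeq2), with a median of −0.05.

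The promoters of 4 of these genes are shown because they hold a letter match to the TEAD motif GGAATG or to the CArG box. The sequences are from RefSeq on build GRCm38.p6 and run 5′ to 3′ toward the transcription start. Capitals mark the match, which on the opposite strand of the TEAD motif reads CATTCC. Ccn1 is at chr3:145649986-145650235 on the minus strand, and the TEAD match starts 103 bases before the start site. Cnn2 is at chr10:79988350-79988583 and Myl9 at chr2:156775214-156775419, both on the plus strand, with CArG boxes that start 56 and 161 bases before it. Vcl is at chr14:20929148-20929397 on the plus strand, with a CArG box 227 and a TEAD match 143 bases before it.
Ccn1: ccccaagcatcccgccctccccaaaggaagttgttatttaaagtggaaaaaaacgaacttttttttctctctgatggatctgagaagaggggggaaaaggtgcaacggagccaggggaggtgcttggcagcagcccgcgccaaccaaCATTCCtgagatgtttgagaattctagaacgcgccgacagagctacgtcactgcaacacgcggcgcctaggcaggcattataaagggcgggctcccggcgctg
Cnn2: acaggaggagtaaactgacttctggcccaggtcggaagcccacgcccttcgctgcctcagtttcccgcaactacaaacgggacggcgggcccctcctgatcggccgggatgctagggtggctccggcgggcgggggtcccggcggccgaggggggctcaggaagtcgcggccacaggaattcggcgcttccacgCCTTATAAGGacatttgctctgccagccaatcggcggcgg
Myl9: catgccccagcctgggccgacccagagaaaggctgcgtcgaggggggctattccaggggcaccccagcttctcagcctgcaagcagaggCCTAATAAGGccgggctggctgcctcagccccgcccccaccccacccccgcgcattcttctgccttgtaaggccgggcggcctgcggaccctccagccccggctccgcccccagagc
Vcl: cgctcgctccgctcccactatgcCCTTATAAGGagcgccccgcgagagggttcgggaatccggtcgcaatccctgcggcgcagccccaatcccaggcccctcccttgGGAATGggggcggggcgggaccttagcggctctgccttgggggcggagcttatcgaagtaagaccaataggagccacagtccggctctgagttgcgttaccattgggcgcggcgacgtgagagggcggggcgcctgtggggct

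Within 250 bases before the start, on either strand, the TEAD motif was found in 12.7% of the 11198 genes tested that have a promoter sequence and the CArG box in 1.44%. Over all 32851 promoters the shares were 12.6% and 1.47%. Of the 122 lower genes with a promoter, 26 held the TEAD motif (21.3%) and 5 the CArG box (4.1%). In the actin list 11 of 22 held the TEAD motif (50%) and 3 the CArG box (13.6%), and among YAP targets 6 of 15 held the TEAD motif (40%). The AP-1 motif TGANTCA, searched in the same way, was in 9 of the 122 lower genes (7.38%) and in 5.13% of those tested. It was in 4 of the 22 actin genes (18.2%) and 1 of the 15 YAP targets (6.67%). Of the 13 higher genes with a promoter, 2 held the TEAD motif (15.4%) and 0 the CArG box. These matches describe letters and were not tested for binding. Of the windows printed, some are shorter than 250 bases because bases of exons in GENCODE M21 were left out.

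Of 7 tested PDGF genes 2 fell, both of them receptors. Pdgfra (chromosome 5, 75152292 to 75198215), the PDGF receptor of oligodendrocyte precursors and fibroblasts, read 2.71, 5.74 and 7.41 CPM in the control and 0.77, 0.887 and 1.21 CPM in PA + PS2, and it was under the control in every library (log2 fold change −2.42 ± 0.35, adjusted p = 0.0116 with the repeat block and 0.0537 without it). Pdgfrb, the receptor of pericytes, read 5.18, 8.69 and 6.95 against 2.5, 3.85 and 1.66 CPM (log2 fold change −1.40 ± 0.22, adjusted p = 0.0148 with the repeat block and 0.142 without it). The ligands did not pass. Pdgfa read 33.9, 30.2 and 30.4 against 35, 37.7 and 38 CPM, higher in each PA + PS2 library (log2 fold change 0.23 ± 0.09, adjusted p = 0.438 with the repeat block and 0.762 without it). Pdgfb read 3.2, 2.48 and 3.45 against 1.64, 2.16 and 1.16 CPM, lower in each (log2 fold change −0.90 ± 0.29, adjusted p = 0.274 with the repeat block and 0.418 without it). Egfr (chromosome 11, 16752203 to 16918158), the EGF receptor of neural progenitors and glia, read 11.8, 24.6 and 23.8 against 5.82, 7.86 and 7.73 CPM (log2 fold change −1.45 ± 0.17, adjusted p = 0.00849 with the repeat block and 0.117 without it). Egfr was in no list. With 1 library left out, 2, 0, 0, 3, 0 and 1 PDGF genes were lower.

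Among 9 insulin-like growth factor genes 3 fell, all of them binding proteins that hold IGF outside the cell. Igfbp2 read 99.7, 109.9 and 118 CPM in the control and 70.8, 66.7 and 65.2 CPM in PA + PS2, with tight groups that did not overlap (log2 fold change −0.69 ± 0.10, adjusted p = 0.0129 with the repeat block and 0.0537 without it). Igfbp5 and Igfbp7 fell too, with log2 fold changes of −0.66 ± 0.10 and −2.60 ± 0.42 (adjusted p = 0.0161 and 0.0186 with the block, 0.161 and 0.151 without it). In the TGF-beta list 1 of 16 fell and 1 rose. The one that rose was Fst (chromosome 13, 114452290 to 114458951), follistatin, a secreted trap for activins, at 29.2, 26.7 and 33.9 against 43.1, 52.9 and 58.4 CPM, with every PA + PS2 library above every control (log2 fold change 0.78 ± 0.11, adjusted p = 0.0116 with the repeat block and 0.11 without it). The PA libraries read 37.2, 29.6 and 45.2 CPM for Fst, and its call held in 3 of the 6 fits that leave out a library. For IGF genes, 3, 0, 0, 3, 0 and 1 were lower with 1 library left out. The TGF-beta coreceptor Eng fell, a call that held without PA + PS2 repeat 1 and in none of the other 5 such fits (log2 fold change −1.55 ± 0.30, adjusted p = 0.0371 with the repeat block and 0.161 without it).

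Markers of fibroblasts, pericytes and meninges were lower in part. The list holds collagen, actin and PDGF receptor genes also reported above, so its values are not separate from theirs. Of 17 tested 5 fell and 0 rose, with a median of −1.53, and the 24 markers summed to 187, 252 and 223 CPM in the control, 163, 213 and 142 CPM in PA and 106, 103 and 54.6 CPM in PA + PS2. Those that fell were Pdgfra, Pdgfrb, Col1a1, Acta2 and Tagln. None of the 24 was at 0 in every library, and PA + PS2 repeat 3 was the lowest. The part of these cells in the lower matrix and actin genes was not tested. In bulk samples fewer cells of a type and less RNA per cell cannot be told apart. Cd248, endosialin, a surface protein of pericytes and fibroblasts, read 2.88, 7.69 and 2.3 CPM in the control and 0.721, 0.887 and 0.166 CPM in PA + PS2 (log2 fold change −2.81 ± 0.36, adjusted p = 0.00894 with the repeat block and 0.109 without it). It was 1 of the 8 steepest lower genes with a mean of at least 1 CPM, and control repeat 2 was well above the other controls. Leaving out 1 library gave 6, 0, 0, 9, 0 and 3 lower markers. Endothelial markers gave 0 calls among 7 tested in either edgeR fit (2 lower at an unadjusted p under 0.05 in both, 1 by DESeq2) and a median of −0.19.

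Of the 166 lower genes 85 were in a list and 81 in none. Anxa2 (chromosome 9, 69453620 to 69491795), an annexin that links membranes to actin, was among the latter and read 10.1, 14.7 and 17 CPM in the control, 12.1, 13.9 and 9.996 CPM in PA and 3.99, 6.21 and 3.53 CPM in PA + PS2. Its highest PA + PS2 library was well under the lowest control (log2 fold change −1.62 ± 0.21, adjusted p = 0.00929 with the repeat block and 0.0537 without it). Lrrk1, a kinase known from bone resorption, read 3.78, 3.87 and 6.77 against 0.914, 1.27 and 0.416 CPM (log2 fold change −2.48 ± 0.39, adjusted p = 0.0152 with the repeat block and 0.0537 without it), and Arsi, a sulfatase, read 1.4, 2.78 and 5.2 against 0.385, 0.732 and 0.291 CPM (log2 fold change −2.65 ± 0.47, adjusted p = 0.0261 with the repeat block and 0.0833 without it). Both are low genes whose groups did not overlap.

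Genes of cell division were lower in the blocked fit. Of 22 mitosis genes 11 fell and 0 rose, with a median of −0.99, and of 21 DNA replication genes 2 fell, with a median of −0.50. Mki67, a marker of cycling cells, read 25.2, 55.3 and 73.8 CPM in the control, 38.1, 68.2 and 45.4 CPM in PA and 15.1, 22 and 22.9 CPM in PA + PS2. PA + PS2 was under the control in every library, though control repeat 1 came near (log2 fold change −1.29 ± 0.20, adjusted p = 0.0148 with the repeat block and 0.176 without it). Tpx2, a spindle assembly factor, read 17, 28.8 and 29.1 against 13, 15.2 and 13.8 CPM (log2 fold change −0.80 ± 0.13, adjusted p = 0.018 with the repeat block and 0.173 without it), and Cdk1, the kinase that drives mitosis, read 6.41, 11.4 and 11.7 against 4.86, 4.47 and 3.24 CPM (log2 fold change −1.20 ± 0.23, adjusted p = 0.0345 with the repeat block and 0.11 without it). Mcm3, a part of the replicative helicase, was 1 of the replication genes that fell (log2 fold change −0.92 ± 0.16, adjusted p = 0.0213 with the repeat block and 0.227 without it). The mitosis count with 1 library left out was 16, 0, 0, 16, 0 and 0, so 0 passed in the blocked edgeR fit without control repeats 2 or 3 or PA + PS2 repeats 2 or 3. Without control repeat 1, the library that stood apart, it was 16. The replication count was 4, 0, 0, 4, 0 and 0.

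In the progenitor and astrocyte lists few genes passed. Nes, the intermediate filament nestin of neural progenitors, read 45.7, 80.8 and 87.8 CPM in the control and 33.9, 42.1 and 38 CPM in PA + PS2, without overlap (log2 fold change −0.88 ± 0.16, adjusted p = 0.0253 with the repeat block and 0.161 without it). It was the only 1 of 16 tested radial glia and progenitor genes to pass, and the list's median was −0.56. When 1 library was left out, 5, 0, 0, 4, 0 and 0 of this list were lower. Vim, vimentin, the filament of radial glia, fibroblasts and reactive astrocytes, read 186, 227 and 241 against 139, 141 and 116 CPM (log2 fold change −0.73 ± 0.11, adjusted p = 0.0124 with the repeat block and 0.0588 without it). Of the 11 tested reactive astrocyte genes 2 fell (2, 0, 0, 3, 0 and 0 with 1 library left out), whereas of the 16 astrocyte markers 0 passed in either edgeR fit (4 lower and 1 higher at an unadjusted p under 0.05 without the block, 6 and 1 with it, 1 lower by DESeq2). Gfap, the astrocyte filament, read 0.0822, 0.869 and 1.52 CPM in the control, 2.29, 2.64 and 2.22 CPM in PA and 0.866, 2.85 and 4.53 CPM in PA + PS2, a wide spread that overlapped (log2 fold change 1.78 ± 0.52, adjusted p = 0.185 with the repeat block and 0.648 without it). The 18 astrocyte markers summed to 412, 497 and 573 CPM in the control and 424, 454 and 492 CPM in PA + PS2, with the lowest value again in control repeat 1 and 1 of the 18 at 0 in every library.

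In the oligodendrocyte lineage, the transcription factors Olig1 and Olig2 were lower and a myelin gene was higher, while the list as a whole was not shifted. Olig1 (chromosome 16, 91269772 to 91271933) read 5.59, 20.1 and 9.94 CPM in the control, 7.69, 19.7 and 6.91 CPM in PA and 1.68, 2.78 and 2.12 CPM in PA + PS2. Olig2, its neighbour in function and in the genome, read 4.48, 14.3 and 9.3 against 2.02, 3.08 and 2 CPM. Both were under every control library, and repeat 2 was the highest of the controls (log2 fold change −2.32 ± 0.24, adjusted p = 0.00687 with the repeat block and 0.11 without it for Olig1). Olig2 gave a log2 fold change of −1.92 ± 0.26 (adjusted p = 0.00953 with the block and 0.144 without it). Mag, a glycoprotein of the myelin sheath, read 0.698, 0.348 and 0.552 CPM in the control, 2.2, 0.377 and 1.32 CPM in PA and 3.03, 2.97 and 1.62 CPM in PA + PS2 and rose with the block (log2 fold change 2.31 ± 0.49, adjusted p = 0.0479 with the repeat block and 0.173 without it). Mag is a low gene in the control, and Mbp, the main cytosolic myelin protein, read 28.1, 22.7 and 25.2 against 41.6, 35.1 and 28.2 CPM and did not pass (log2 fold change 0.47 ± 0.16, adjusted p = 0.342 with the repeat block and 0.954 without it). In all, 3 of 15 lineage genes fell and 1 rose, Pdgfra being the third of those that fell. Of the 15, 8 had a log2 fold change below 0 and 7 above, with a median of −0.02. The 17 markers summed to 79.4, 100 and 92.1 CPM in the control and 95.5, 88.4 and 71.2 CPM in PA + PS2. Lineage genes lower with 1 library left out numbered 4, 1, 1, 3, 1 and 3. The call for Olig1 held in all 6 of these fits, that for Olig2 in 3 and that for Mag in 1.

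A few phagocyte genes were higher, while the microglial genes Cx3cr1 and Fcrls were not. Lyz2 (chromosome 10, 117277331 to 117282321), the lysozyme of macrophages and microglia, read 1.52, 0.522 and 0.737 CPM in the control, 0.9, 0.461 and 0.827 CPM in PA and 3.7, 4.63 and 5.2 CPM in PA + PS2. In counts these were 37, 12 and 16 reads in the control and 77, 120 and 125 in PA + PS2, and every PA + PS2 library was above every other (log2 fold change 2.35 ± 0.36, adjusted p = 0.0148 with the repeat block and 0.0614 without it). Reads could be shared with the near-identical Lyz1, which had at most 1 count in a library. Gpnmb, a lysosomal glycoprotein of phagocytes, read 3.53, 2.78 and 4.01 against 7.07, 5.24 and 10.1 CPM (log2 fold change 1.10 ± 0.22, adjusted p = 0.0397 with the repeat block and 0.15 without it), and Acod1, which makes itaconate in activated macrophages, read 0.534, 0.609 and 0.645 against 1.97, 1.46 and 2.54 CPM (log2 fold change 1.70 ± 0.34, adjusted p = 0.041 with the repeat block and 0.109 without it). In these 3 genes the groups did not overlap. Cx3cr1, the fractalkine receptor of resting microglia, read 0.945, 1.78 and 1.24 against 0.673, 0.116 and 0.249 CPM, and Fcrls, a microglial receptor, 0.739, 1.43 and 1.38 against 0.529, 0.116 and 0.0416 CPM. Both were lower in every PA + PS2 library without passing (log2 fold change −1.92 ± 0.62, adjusted p = 0.278 with the repeat block and 0.332 without it for Cx3cr1). Their PA + PS2 values rest on few reads.

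Of 14 tested microglia and macrophage markers 2 rose, Lyz2 and Gpnmb, and 0 fell, with a median of −0.14. The log2 fold change was below 0 for 7 of the 14 and above 0 for 7, so Cx3cr1 and Fcrls do not stand for the list. The markers summed to 23, 24.7 and 24.5 CPM in the control and 27.9, 23 and 31.7 CPM in PA + PS2. A list of 18 phagocyte activation genes, drawn up after these values had been seen, had 2 that rose, Acod1 and Slc11a1, and a median of 0.33. Slc11a1, a metal transporter of phagosomes, read 0.164, 0.391 and 0.552 CPM in the control and 1.2, 1.35 and 1.95 CPM in PA + PS2 (log2 fold change 2.05 ± 0.41, adjusted p = 0.0424 with the repeat block and 0.157 without it). Leaving out 1 library gave 1, 0, 0, 2, 0 and 0 higher microglia and macrophage markers, and without PA + PS2 repeat 1 it also gave 2 lower. The blocked edgeR fits that leave out a library called 0, 0, 0, 0, 0 and 0 genes of the phagocyte activation list higher, where DESeq2 on all libraries called 3. The call for Lyz2 held in 2 of those 6 fits, that for Gpnmb in 1 and those for Acod1 and Slc11a1 in 0.

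**Figure D3:**
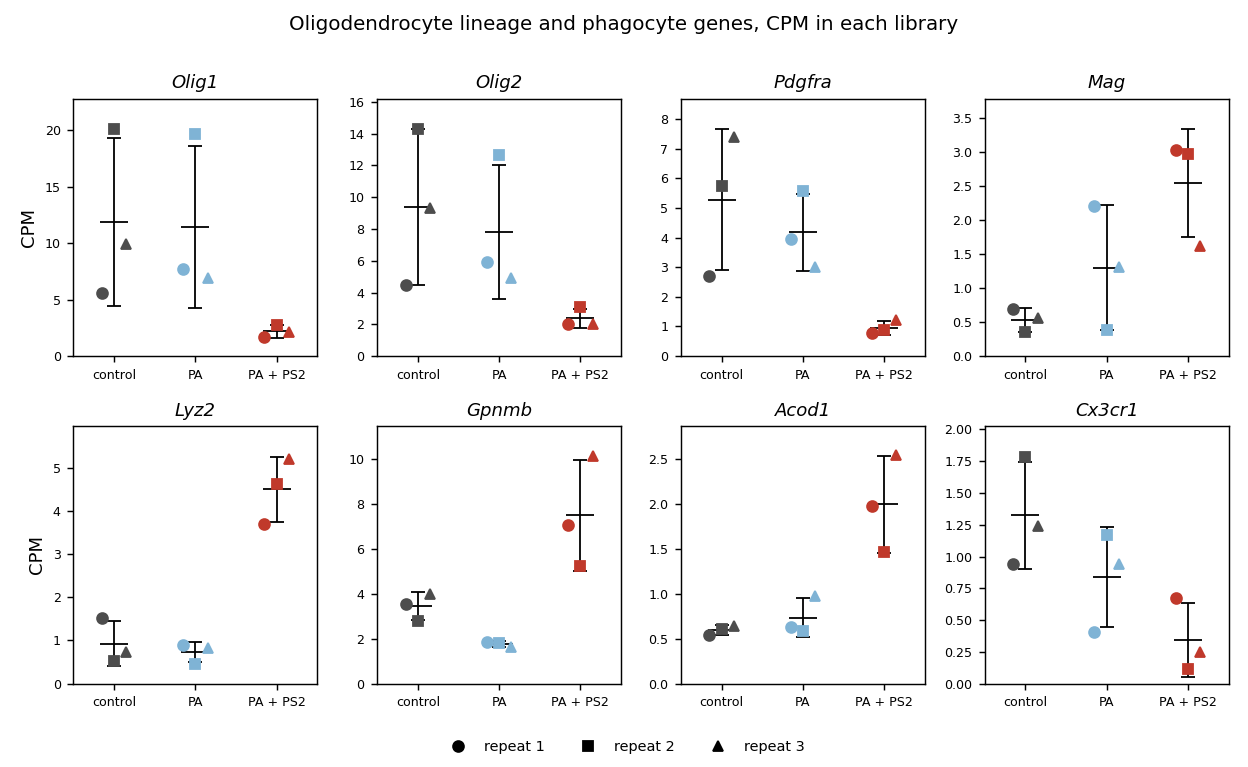
Level in each library (y axes, CPM, starting at 0) of 4 oligodendrocyte lineage and 4 phagocyte genes in the control, PA and PA + PS2 groups (x axes), with 1 symbol per repeat, a line at the group mean and an error bar of 1 SD over 3 libraries. Every PA + PS2 library lies below the control libraries for Olig1, Olig2, Pdgfra and Cx3cr1, the last of which did not pass, and above them for Mag, Lyz2, Gpnmb and Acod1.

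Genes of the ATF4 amino acid response were the largest group among the higher genes. Of 22 tested 7 rose and 0 fell, with a median of 0.31, and 11 lay above the control in all libraries, as did 5.38% of all genes tested. Atf4, the factor itself, read 216, 212 and 189 CPM in the control, 222, 234 and 189 CPM in PA and 283, 274 and 272 CPM in PA + PS2. Slc7a5 (chromosome 8, 121881150 to 121907694), the transporter of large neutral amino acids, read 200.2, 189.5 and 173 CPM in the control, 220.1, 171 and 180.01 CPM in PA and 264, 267 and 283 CPM in PA + PS2. In both, every PA + PS2 library was above every control and every PA library (log2 fold change 0.43 ± 0.08, adjusted p = 0.0299 with the repeat block and 0.161 without it for Atf4). For Slc7a5 the log2 fold change was 0.54 ± 0.09 (adjusted p = 0.0229 with the block and 0.108 without it).

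Slc3a2, the partner chain of Slc7a5, read 136, 131 and 109.5 against 165, 159 and 163 CPM (log2 fold change 0.38 ± 0.08, adjusted p = 0.049 with the repeat block and 0.237 without it), and Slc7a1, the transporter of arginine and lysine, read 134, 117 and 112 against 167, 159 and 164 CPM (log2 fold change 0.44 ± 0.08, adjusted p = 0.0229 with the repeat block and 0.128 without it). Chac1, which breaks down glutathione, read 11.7, 11.3 and 8.65 against 19.5, 15.5 and 13.5 CPM (log2 fold change 0.61 ± 0.12, adjusted p = 0.0348 with the repeat block and 0.355 without it). Atf5, a related factor, read 61.1, 63 and 54.9 against 81.8, 82.1 and 74.5 CPM (log2 fold change 0.41 ± 0.08, adjusted p = 0.0371 with the repeat block and 0.178 without it), and Aldh1l2, a mitochondrial folate enzyme, read 80.5, 55.5 and 89.7 against 104, 102 and 121 CPM (log2 fold change 0.56 ± 0.10, adjusted p = 0.0302 with the repeat block and 0.496 without it). Aldh1l2 shares 14.1% of its exonic bases with D10Wsu102e on the other strand, so its reads are uncertain. The groups were apart in each of these 5 genes, by amounts that were small beside those of the matrix genes. Asns, which makes asparagine, read 129, 119 and 105 against 152, 148 and 173 CPM and did not pass (log2 fold change 0.42 ± 0.10, adjusted p = 0.0727 with the repeat block and 0.173 without it). Ddit3, which codes for the factor CHOP, gave 0.18 ± 0.12 (adjusted p = 0.841 with the block). The number of higher ATF4 genes was 1, 0, 0, 8, 0 and 0 with 1 library left out.

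Cytosolic aminoacyl-tRNA synthetases, which load amino acids onto tRNAs, were listed after values had been seen. Of 20 tested 1 rose and 0 fell, with a median of 0.16, and 11 had PA + PS2 above the control in all libraries, against 5.38% of all genes tested. Other lists had such genes too. They were 6 of 21 for cholesterol synthesis, 5 of 16 for p53 and apoptosis and 4 of 16 for cortical excitatory neurons. In these lists 0, 1 and 0 genes lay wholly below. Cars, the cysteine enzyme, read 94.4, 81.6 and 72.2 CPM in the control, 88.7, 94.3 and 74.6 CPM in PA and 121, 114 and 112 CPM in PA + PS2, with no overlap (log2 fold change 0.49 ± 0.09, adjusted p = 0.0255 with the repeat block and 0.178 without it). In fits that each left out 1 library, 1, 0, 0, 5, 0 and 0 of these enzymes were higher. Gars, the glycine enzyme, read 327, 301 and 278 against 344, 357 and 406 CPM and did not pass (log2 fold change 0.29 ± 0.09, adjusted p = 0.278 with the repeat block and 0.496 without it). Bbc3, the cell death gene PUMA, was the 1 of 16 p53 and apoptosis genes that rose, and did so without PA + PS2 repeat 1 but in none of the other 5 fits that leave out a library, at 25.7, 22 and 20.03 against 34.6, 33.5 and 30.7 CPM (log2 fold change 0.55 ± 0.10, adjusted p = 0.0311 with the repeat block and 0.234 without it). Hs6st2, which sulfates heparan sulfate and was in no list, rose too, at 63.6, 58 and 71.6 against 81, 83.5 and 109 CPM (log2 fold change 0.49 ± 0.09, adjusted p = 0.0261 with the repeat block and 0.418 without it).

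**Figure D4:**
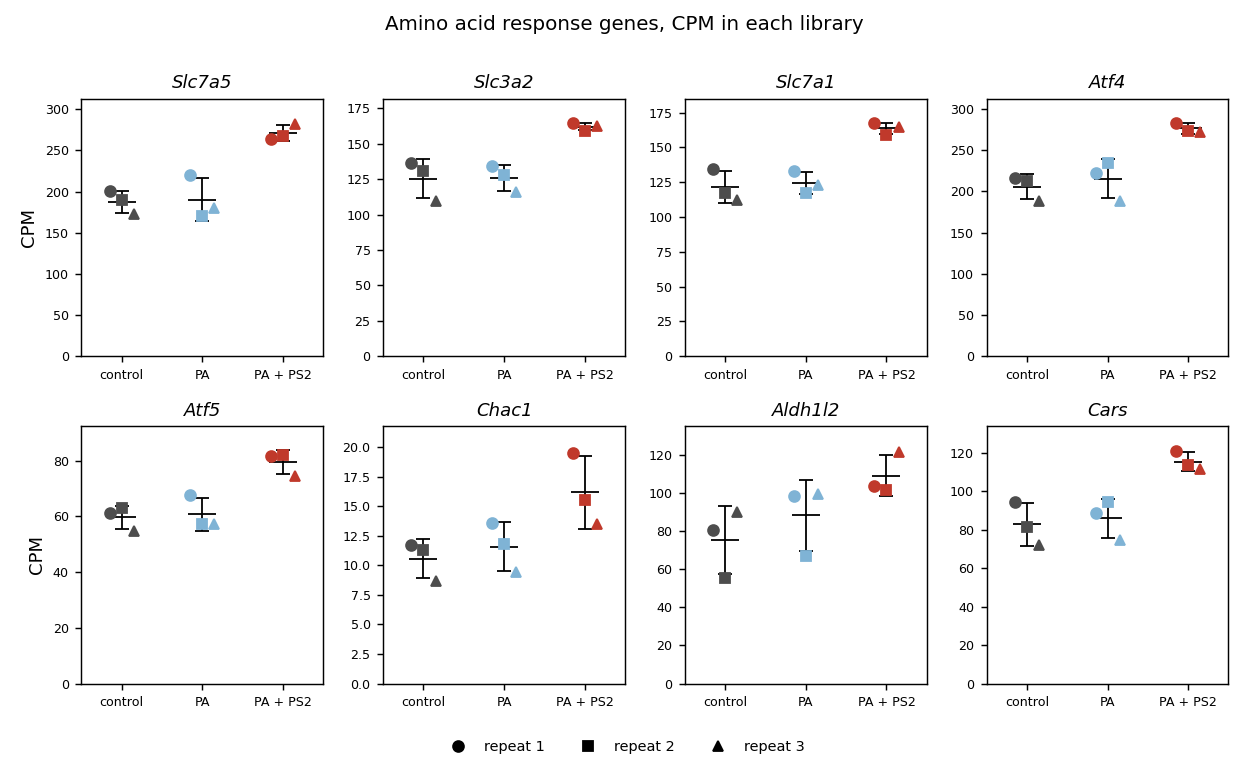
Level in each library (y axes, CPM, starting at 0) of 7 amino acid response genes and the tRNA synthetase gene Cars in the control, PA and PA + PS2 groups (x axes), with 1 symbol per repeat, a line at the group mean and an error bar of 1 SD over 3 libraries. In all 8 panels every PA + PS2 library lies above every control library.

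The promoters of Chac1 and Gars are shown because they hold a letter match to the ATF4 element, TGATGNAA or TTNCATCA on the other strand. Chac1 is at chr2:119350992-119351228 and Gars at chr6:55037751-55038000, both on the plus strand of GRCm38.p6 in RefSeq, and the matches in capitals start 193 and 30 bases before the start site. Gars is shown although it did not pass.
Chac1: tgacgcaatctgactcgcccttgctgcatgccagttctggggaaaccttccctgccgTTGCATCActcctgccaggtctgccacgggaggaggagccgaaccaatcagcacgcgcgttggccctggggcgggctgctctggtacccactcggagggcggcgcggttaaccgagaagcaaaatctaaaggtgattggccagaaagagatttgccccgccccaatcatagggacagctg
Gars: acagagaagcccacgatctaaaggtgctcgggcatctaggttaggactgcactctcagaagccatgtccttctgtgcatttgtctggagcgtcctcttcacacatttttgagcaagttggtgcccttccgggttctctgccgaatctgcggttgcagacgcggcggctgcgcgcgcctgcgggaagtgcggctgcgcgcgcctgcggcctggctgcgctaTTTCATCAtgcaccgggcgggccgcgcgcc

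The element was in 2.4% of the genes tested that have a promoter sequence and in 3.45% of all promoters. It was in 5 of 19 ATF4 list members (26.3%), 3 of 12 tRNA synthetases (25%), 1 of the 13 higher genes (7.69%) and 2 of the 122 lower genes (1.64%).

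Other stress and metabolism lists gave 0 calls in either edgeR fit among 129 different genes. At an unadjusted p under 0.05, 6 were lower and 6 higher without the block and 8 and 9 with it, and DESeq2 called 1 lower. The lists were the unfolded protein response (17 tested, median −0.08), heat shock (11), NRF2 targets (15), glycolysis and hypoxia (22), cholesterol synthesis (21, median 0.12), oxidative phosphorylation (24, median 0.07), NF-kB and cytokines (10) and the interferon response (9).

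In neuronal lists neither of the edgeR fits of all 9 libraries gave a call. In the lists of neurons (18 tested), cortical excitatory neurons (16), GABAergic neurons (16), neuronal maturation pairs (24), presynaptic release (26), glutamatergic postsynapse (26), voltage-gated channels (23) and axon growth and guidance (30), 0 genes passed in either direction in either of these fits. These 8 lists hold 158 different tested genes, of which 3 were lower and 1 higher at an unadjusted p under 0.05 without the block and 4 and 8 with it. DESeq2 called 0 without the block and, with it, 1 GABAergic gene higher. The blocked edgeR fit of the 6 libraries called 1 excitatory, 1 GABAergic and 1 maturation gene higher and 2 axon genes lower, and that without PA + PS2 repeat 1 called 1 gene higher in each of the neuron, excitatory and GABAergic lists. Their medians ran from −0.09 to 0.09. Rbfox3, which codes for the neuronal nuclear protein NeuN, read 108, 94.4 and 96.5 CPM in the control and 119.7, 104 and 107 CPM in PA + PS2, with a log2 fold change of 0.14 ± 0.08 (adjusted p = 0.789, edgeR with the block). Nefm, the medium neurofilament, read 102, 84.9 and 77.1 against 107, 114 and 130.2 CPM, and all PA + PS2 libraries were above the controls, although 19.2% of its exonic bases are shared with Nefl on the other strand (0.42 ± 0.14, adjusted p = 0.317). Camk2a, the kinase of excitatory synapses, read 93.5, 92.8 and 81.1 against 77.6, 72.7 and 72.6 CPM, and all were below (−0.26 ± 0.08, adjusted p = 0.191). Neurod2, a factor of cortical excitatory neurons, read 396, 342 and 335 against 428, 464 and 437 CPM, and Slc17a7, the vesicular glutamate transporter VGLUT1, 32.9, 30.04 and 18.3 against 40.2, 34 and 27.7 CPM. Neurod2 was above every control in PA + PS2 and Slc17a7 overlapped, and neither passed (adjusted p = 0.435 and 0.298 with the block). A p over the threshold does not show that these genes are alike in the groups.

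Activity genes gave 0 calls in either edgeR fit, both among 18 immediate-early genes (median −0.22) and among 18 delayed response genes (median −0.30). At an unadjusted p under 0.05, 3 of the 36 were lower and 0 higher without the block, 8 and 0 with it, and DESeq2 called 1 lower. Without the block 4.54% of the genes tested were lower at that cut and 1.09% higher, and with it the share was not counted. The immediate-early list spread widely within both groups. Relative to the control mean its median level was 0.41, 0.16 and −0.54 on the log2 scale in the control and 0.15, −0.56 and −0.70 in PA + PS2. The 9 neurotrophin genes gave 0 calls in both fits, by DESeq2 and at an unadjusted p under 0.05 (median −0.10).

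**Figure D5:**
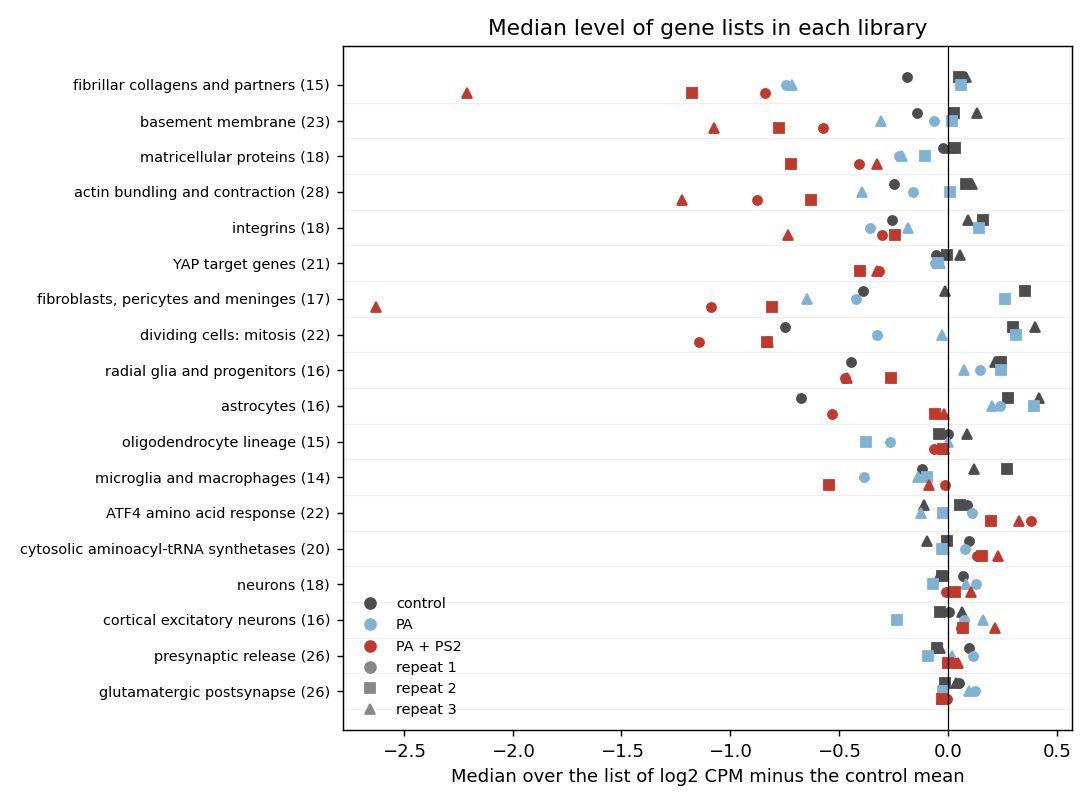
Median over the tested members of 18 gene lists (y axis, number tested in brackets) of log2 CPM minus the control mean (x axis, 0 being the control mean), with 1 symbol per library, colored by group and shaped by repeat. PA + PS2 lies left of every control for the collagen and actin lists and right of every control for the ATF4 list, control repeat 1 lies left of the other controls for mitosis and astrocytes, and the neuronal lists lie near 0.

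Against the scaffold without PS2, edgeR without the block called 0 genes lower and 0 higher (0% each), with 719 (4.58%) and 162 (1.03%) at an unadjusted p under 0.05, and DESeq2 called 115 and 6. With the block, edgeR called 53 lower (0.337%) and 4 higher (0.0255%). This comparison uses the same PA + PS2 libraries as the one above, so its values are only set beside them. In the fit without the block, the log2 fold changes against PA were −1.15 ± 0.18 for Col5a2, −1.40 ± 0.28 for Sparc, −0.95 ± 0.19 for Cnn2 and −2.37 ± 0.51 for Olig1. They were 2.62 ± 0.39 for Lyz2, 0.51 ± 0.11 for Slc7a5 and 0.46 ± 0.16 for Fst, and none of these genes passed in that fit. With the block all of them but Fst passed against PA in edgeR. For Fst the adjusted p was 0.106 with the block, and its PA + PS2 and PA libraries overlapped. Of the 166 lower genes 146 were below all PA libraries in all PA + PS2 libraries, and of the 18 higher genes 12 were above them, where 993 (6.32%) and 522 (3.32%) of the genes tested were so placed.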

How the data were processed

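RNA was sequenced from 9 libraries. The deposited values are raw counts of reads per Ensembl gene that the authors made. Per the submitters' processing notes, the build was mm10 and the tools included STAR 2.7.5 and HTSeq 2.0.2, with cutadapt 4.2 and DESeq2 1.14.1, all without roles. Strand setting and annotation are not given in the sources used here, so overlapping genes on opposite strands cannot be told apart. The label polyA RNA and a total RNA kit disagree on the RNA selection.

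Counts were filtered with filterByExpr (minimum count 10, minimum total 15), which kept 99.9% of them, and scaled by TMM. They were tested 2-sided in edgeR 4.0.16 (R 4.3.3) over all 9 libraries, with Benjamini-Hochberg adjustment over 15712 genes and a threshold of 0.05. The main fit had no block. A fit with the repeat number as a block is printed beside it, because same-numbered control and PA + PS2 libraries deviated together (r = 0.18, 0.22 and 0.13 across genes). That hint comes from the data and not from a label. Standard errors were taken from the log2 fold change and its F statistic. Common biological variation was 16.6%, and 11.6% with the block. Names and coordinates came from GENCODE M21, which matched 54165 of 54232 identifiers. Alternatives used DESeq2 1.42.0, other filters and scaling, and fewer libraries. The scripts were tested on simulated data.

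Libraries were grouped by title. The comparison and the 49 gene lists (860 symbols, 780 tested) were chosen with earlier results of these data known. Genes were named by rule: those passing the main fit, the 12 smallest p in each direction and 8 steepest of the blocked fit with at least 1 CPM, and the 4 smallest p of each list. Others named, among them Col1a1, Lamc1, Lama5, Lamb2, Col4a2, Tnc, Fn1, Itgb1, Vcl, Ccn2, Pdgfa, Gfap, Fcrls, Slc11a1, Slc3a2, Ddit3 and Gars, were chosen after their values were seen. A gene that is withheld is not reported here.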

Additional observations from a re-analysis of the deposited data

How the results depend on the processing

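Against the control without the block, where edgeR called 7 genes lower and 0 higher, the counts were 17 lower with DESeq2 size factors, 195 and 17 with DESeq2, 338 and 27 without the low-count filter, and 26 and 2 in a fit of the 6 libraries. With the replicate block they were 166 and 18 on 9 libraries and 268 and 46 on 6. Leaving out 1 library gave 0 to 173 lower and 0 to 2 higher without the block. In the blocked fit, leaving out 1 library gave 11 to 358 lower (21 without control repeat 3, 31 without PA + PS2 repeat 3) and 0 to 75 higher, and DESeq2 with the block gave 350 and 70, of which 165 and 18 were called by the blocked edgeR fit too; these blocked alternatives with DESeq2 were chosen after seeing the data. Against PA, where edgeR called 0 in each direction, DESeq2 gave 115 lower and 6 higher and the fit without a filter 307 and 23. The block gave 53 and 4 there, or 42 and 5 on 6 libraries. Libraries of the same repeat deviated together in repeats 2 and 3 but not in repeat 1 (r = 0.01, 0.29 and 0.3 for repeats 1, 2 and 3). PA + PS2 repeat 1 went more with PA repeat 2 (r = 0.14). Leaving out 1 library, with or without the block, gave 0 to 204 lower (66 with the block without PA repeat 3) and 0 to 22 higher. The cause of these changes was not tested. No gene named in the text turned its sign under an alternative. Of the list medians, 596 of 663 moved by less than the spread between replicates. Genes under 1 CPM, as Acod1 and Mag in the control, rest on few reads, since 1 CPM is 20.7 reads in the shallowest library.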
